A study of Mus musculus with 10 samples.

Results

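Genes of Wnt signaling, of its beta-catenin branch and of the Ror branch, with their inhibitors, were examined as a list of 40 genes in WT31 melanoma cells and in the hepatic-passaged subline WT31_P5IV. The list held 7 ligands, 13 receptors and co-receptors, 3 Dishevelled genes, 6 genes of beta-catenin and its destruction complex, 4 TCF/LEF transcription factors and 7 inhibitors, chosen by symbol out of the 55385 gene identifiers of the deposited tables. All 40 symbols were found. WT31 is a mouse melanoma line from Tyr∷NrasQ61K/°; INK4a−/− animals, in which the tyrosinase promoter drives mutant Nras (Q61K) in pigment cells, and both groups share this genotype. The study detected this mutant gene in WT31 and its sublines by a PCR of human NRAS. Cdkn2a, the gene of INK4a, was listed at 71 to 84 counts in WT31 and 63 to 84 in WT31_P5IV, and which part of it is deleted is not given in the sources used here. WT31_P5IV was made from WT31 in 5 cycles of tail vein injection, dissection of macroscopic liver metastases and expansion in culture. RNA came from untreated, sub-confluent cultures of both, not from metastases, with 5 libraries per group. A single passaged subline was sequenced, so its libraries are replicates of that subline and not of the passaging. The sample titles call the libraries biological replicates without saying whether they came from separate cultures, so p-values measure the spread between these libraries, which may be technical.

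Secreted Wnt proteins bind Frizzled receptors together with the co-receptors Lrp5 and Lrp6, and Dishevelled proteins carry the signal inside the cell. Without a ligand, a complex of Apc, Axin and glycogen synthase kinase 3 marks beta-catenin for degradation, and with a ligand beta-catenin accumulates and activates genes together with TCF/LEF factors in the nucleus. The genes activated in this way include inhibitors, among them Axin2, Nkd1, Rnf43 and Znrf3, which form negative feedback loops. Other Wnt proteins, such as Wnt5a and Wnt5b, are best known for signaling through Ror receptors and Frizzleds without beta-catenin. In the melanocyte lineage, canonical Wnt signaling promotes the formation of pigment cells from the neural crest and supports expression of Mitf, the main transcription factor of these cells.

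Libraries held 24255389 to 25750639 estimated counts. Levels are given as CPM (estimated counts relative to a common library total, on library sizes scaled by the TMM method) for one gene between groups, and as TPM (the same kind of scale, which also corrects for transcript length) where different genes are compared. A difference was called where edgeR's quasi-likelihood test gave an adjusted p below 0.05 (Benjamini-Hochberg, over all 13620 tested genes), and fold changes are log2 values of WT31_P5IV against WT31 with their standard error. On the TPM scale the median of all genes moved by −0.167 with log2(TPM + 0.1) and by −0.159 with log2(TPM + 1). TPM values compared between groups below are not corrected for this shift, except after centring. Ratios of summed CPM are given with the alternative settings. All 7 markers of melanocytes were detected, at a summed 17000 to 18400 CPM in WT31 and 22200 to 25700 CPM in WT31_P5IV. The 8 hepatocyte markers summed to 0.681 to 0.901 CPM in WT31 and 0.867 to 1.56 CPM in WT31_P5IV, 5 of them above 3 counts in a library and Serpina1a, Fgb and Cyp3a11 at 0 in every library. The 7 endothelial markers (2 above 3 counts, Cdh5 and Lyve1 at 0) and the 8 stellate cell and fibroblast markers (7 above 3 counts, none at 0) summed to at most 0.492 and 3.77 CPM, and the 8 leukocyte markers (3 above 3 counts, Clec4f at 0) reached 4.84 to 6.72 CPM in WT31 and 4.34 to 6.24 CPM in WT31_P5IV. Within single lists the markers did not move together: Lyz2 was at 92 to 129 counts in WT31 and 21 to 30 in WT31_P5IV, Cd68 at 20 to 50 and 80 to 117, and the melanocyte marker Tyrp1 at 76602 to 79176 and 34435 to 40311. Their part in the results below was not tested. Within WT31, a component with 40.9% of the variance separated replicates 2 and 3 (loadings 0.541 and 0.481) from replicates 4 and 5 (−0.347 and −0.59), with replicate 1 at −0.0845.

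Of the 40 Wnt components, 33 were abundant enough to be tested and 28 of these were called, against 68.5% of all tested genes. In WT31_P5IV, 19 were higher and 9 lower (34.6% and 33.9% of all tested genes), and the median log2 fold change of the 33 was 0.22, beside 0.01 for all tested genes. Fewer components were called higher on the TPM scale, as given with the alternative settings. Receptors leaned to one side, with 11 of 13 higher and 0 lower, while 3 of 4 TCF/LEF factors were lower. 5 components were past a log2 fold change of 1 in either direction, the filter of the study (9.1% of all tested genes): Dkk2, Wnt5b, Lrp5 and Fzd6 were higher (5.42% of all tested genes) and Wnt4 was lower (3.69%). Just outside this limit stood Nkd1 at −0.997 and Lrp6 at 0.95. For 22 of the 33 components the libraries of one line all lay above those of the other in CPM, as they did for 54.1% of all tested genes. In bulk RNA, fewer cells with a transcript and less of it per cell cannot be told apart.

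**Figure D1:**
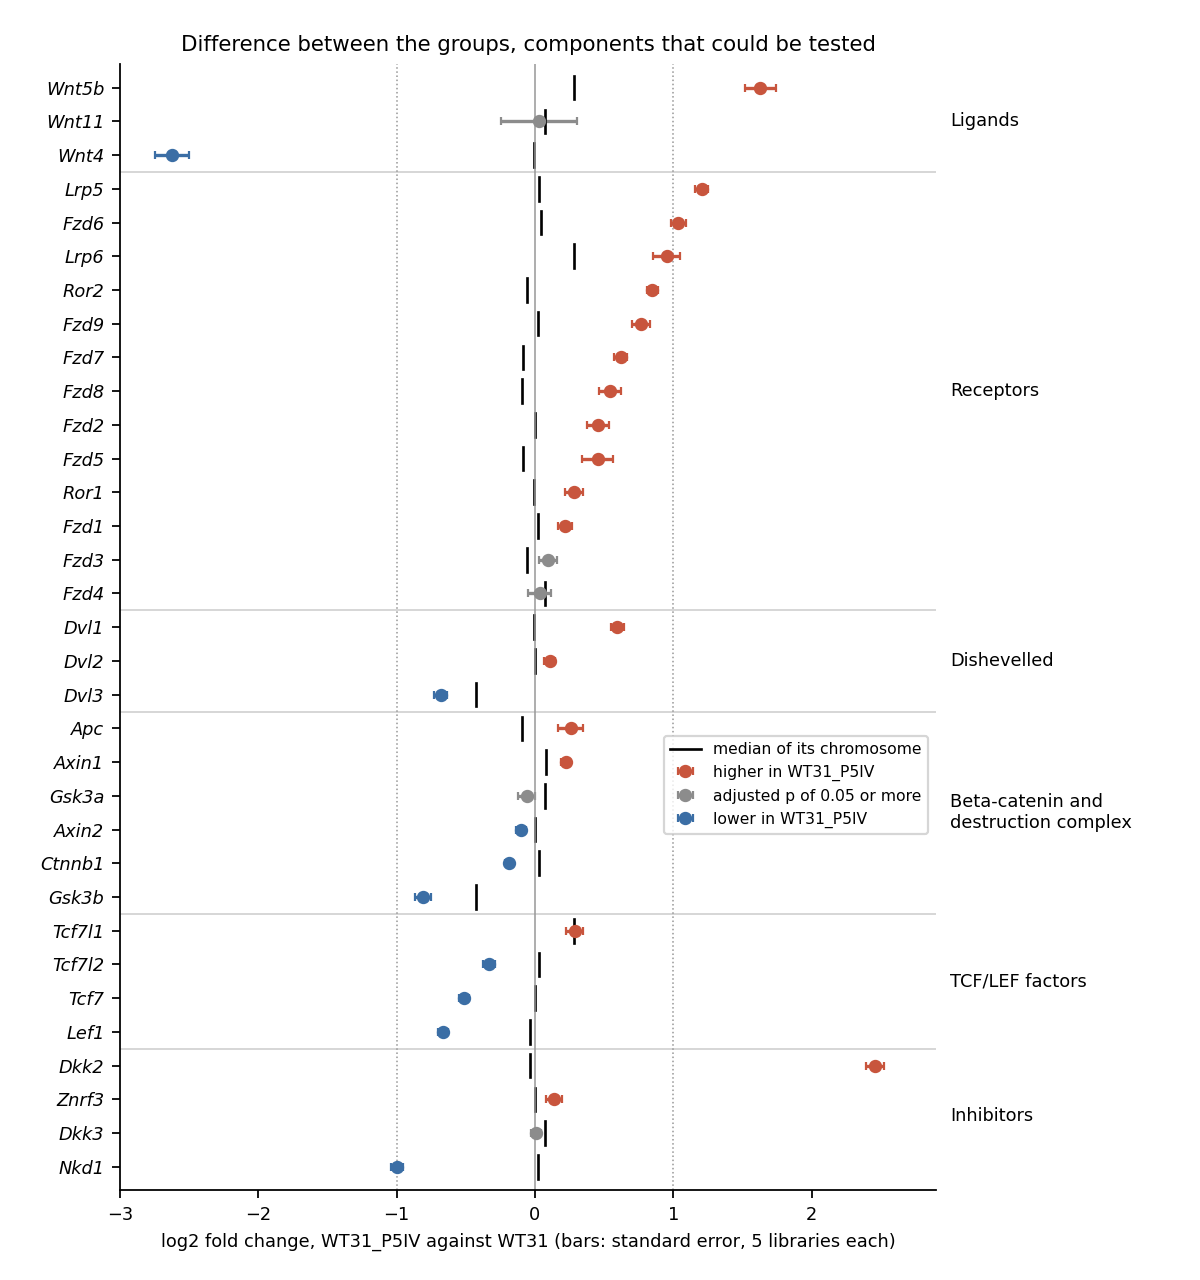
Log2 fold change of WT31_P5IV against WT31 (horizontal axis) for the 33 tested components, ordered by role, with the standard error from 5 libraries per group; black ticks mark the median of all tested genes of the same chromosome and dotted lines a difference of 1 either way. All 13 receptors lie to the right of 0, 11 of them called, and the ligands Wnt4 (−2.62) and Wnt5b (1.63) lie on opposite sides.

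Among the ligands, Wnt4 was lower and Wnt5b higher in WT31_P5IV. Wnt4, a ligand reported to act with and without beta-catenin depending on the cell, was 7.37, 6.02, 6.51, 7.58 and 7.60 CPM in the WT31 libraries and 1.14, 1.07, 0.885, 1.43 and 1.16 CPM in WT31_P5IV. The highest WT31_P5IV library stayed below the lowest WT31 library. The means were 7.02 ± 0.715 and 1.14 ± 0.197 CPM (SD, n = 5 each), a log2 fold change of −2.62 (SE 0.12, adjusted p = 1.68e-10, edgeR's quasi-likelihood test). Wnt4 (ENSMUSG00000036856.4) lies at chr4:137277489-137299726 in GRCm38, and each WT31 library held 159 to 193 of its counts, beside 22 to 34 in the passaged subline.

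Wnt5b, a ligand of the Ror and Frizzled branch, was 1.84, 1.70, 1.57, 1.61 and 1.98 CPM in WT31 and 4.96, 6.18, 5.63, 4.63 and 5.58 CPM in WT31_P5IV, again with no overlap. Its log2 fold change was 1.63 (SE 0.11, adjusted p = 8.26e-09, edgeR's quasi-likelihood test), from 40 to 50 counts per library to 110 to 144. Wnt5b (ENSMUSG00000030170.14) lies on the minus strand at chr6:119432531-119544347. Wnt11 was low in both groups, at 10 to 20 counts in WT31 and 9 to 26 in WT31_P5IV, and was not called (log2 fold change 0.03, SE 0.28, adjusted p = 0.933, edgeR's quasi-likelihood test). The other 4 ligands were too low for the test: Wnt6 had 1 to 9 counts in WT31 and 0 to 5 in WT31_P5IV, while Wnt5a, Wnt10a and Wnt10b had at most 1 count in any library. A limit of 3 counts corresponds to 0.114 to 0.129 CPM per library and covers counting error only, so differences of these 3 ligands were not detectable at this depth.

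Per transcript length, the 7 ligands together reached 4.68 ± 0.186 TPM in WT31 and 4.54 ± 0.554 TPM in WT31_P5IV (SD, n = 5), with overlapping libraries. Summed in CPM they were lower in WT31_P5IV, as given with the alternative settings. Wnt4 made up 55.8% of the TPM sum in WT31 (52.1 to 57.9%) and 8.36% in WT31_P5IV (6.74 to 11.5%). Wnt5b made up 26.9% (24.8 to 28.7%) and 76.7% (69.0 to 85.0%). The order of the levels was Wnt4, Wnt5b, Wnt11 in WT31, with no overlap between these neighbours, and Wnt5b first in WT31_P5IV, followed by Wnt11 and Wnt4, whose TPM overlapped.

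Promoter windows were searched for the core letters that TCF/LEF factors recognise, CTTTGA, for its longer forms CTTTGAA as well as CTTTGAT, and for the related CTTTGTT, each on both strands. A match to either longer form also counts as a match to the core. The windows were the 250 bases before a RefSeq start (GRCm38.p6), which was given for 27 of the 40 components, with 37 windows in all. CTTTGA was present in 8 of the 37 windows (Dkk1, Fzd1, Gsk3a, Gsk3b, Lef1, Ror1, Wnt11 and Wnt5b) and in 13.83% of all 32851 promoter windows of this length. CTTTGAT was present in 2 windows (Wnt5b and Wnt11) and 3.21% of all, CTTTGAA in 2 (Dkk1 and Gsk3a) and 4.46% of all, and CTTTGTT in 3 (Dkk1, Fzd7 and Tcf7l2) and 5.03% of all. The median GC content was 66.4% in the windows of the components and 52.4% in all windows. A match describes the letters only. The Wnt5b window with the match, 1 of 3 for this gene, precedes an internal RefSeq start within the gene. The window before the 5′ end of the gene held no match to any of these letters. The window with the match is shown because Wnt5b was the ligand that was higher in WT31_P5IV (chr6:119449387-119449636, minus strand, the core in capitals, 5′ to 3′).
Wnt5b: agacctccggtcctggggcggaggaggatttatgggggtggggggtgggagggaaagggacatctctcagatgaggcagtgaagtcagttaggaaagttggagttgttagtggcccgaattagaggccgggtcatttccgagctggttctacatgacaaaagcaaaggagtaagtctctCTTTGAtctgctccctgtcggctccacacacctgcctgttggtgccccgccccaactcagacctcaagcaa

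All 13 receptors were tested, and 11 were higher in WT31_P5IV and 0 lower, beside 34.6% and 33.9% of all tested genes. In the alternative settings 8 to 12 were higher and 0 lower. Fzd3 and Fzd4 were not called. Lrp5, the receptor with the highest fold change, is a co-receptor that with Lrp6 serves the beta-catenin branch. It was 38.2, 38.0, 38.8, 39.1 and 38.7 CPM in WT31 and 88.1, 96.2, 95.6, 80.8 and 84.2 CPM in WT31_P5IV. Its means of 38.6 ± 0.456 and 89.0 ± 6.84 CPM (SD, n = 5) gave a log2 fold change of 1.21 (SE 0.05, adjusted p = 4.09e-11, edgeR's quasi-likelihood test). Lrp5 (ENSMUSG00000024913.16) lies at chr19:3584828-3686564 on the minus strand. The close relative Lrp6 was 73.6, 96.3, 93.8, 72.7 and 66.7 CPM in WT31 and 147, 164, 167, 137 and 165 CPM in WT31_P5IV. Replicates 2 and 3 were the highest WT31 libraries here, and all of WT31_P5IV lay above them. The log2 fold change of Lrp6 was 0.95 (SE 0.09, adjusted p = 4.95e-07, edgeR's quasi-likelihood test), 1.12 without WT31 replicates 2 and 3 and 0.81 without replicates 4 and 5. The counts of Lrp6 per TPM rose between the groups by 0.23 on the log2 scale (5th and 95th percentile of all genes −0.15 and 0.12), and its TPM were 18.7 ± 2.34 and 27.8 ± 1.71 (SD, n = 5). Together, Lrp5 and Lrp6 reached 32.4 TPM in WT31 and 55.3 TPM in WT31_P5IV.

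Among the Frizzled receptors, which bind the Wnt ligand directly, 7 of 9 were higher in WT31_P5IV, beside 34.6% of all tested genes. Fzd6, a Frizzled known for planar cell polarity, was 30.2, 31.6, 31.3, 27.6 and 27.9 CPM in WT31 and 60.0, 67.3, 60.6, 55.9 and 61.1 CPM in WT31_P5IV. Its groups were far apart, with a log2 fold change of 1.04 (SE 0.05, adjusted p = 5.49e-10, edgeR's quasi-likelihood test). It fell short of the filter in 7 of 21 alternative settings: at 0.98 with no filter on low counts, at 0.86 and 0.81 on the TPM scale, at 0.994 to 0.999 without WT31 replicate 4 or 5 or WT31_P5IV replicate 2, and at 0.95 without WT31 replicates 4 and 5 together. Fzd6 (ENSMUSG00000022297.15) lies at chr15:39006034-39038188. Fzd9 was 24.02, 21.23, 21.02, 25.19 and 25.86 CPM in WT31 and 38.4, 40.7, 42.7, 40.5 and 37.5 CPM in WT31_P5IV, a log2 fold change of 0.77 (SE 0.06, adjusted p = 5.22e-08, edgeR's quasi-likelihood test). The most abundant Frizzled per length in both groups was Fzd7, a receptor of the beta-catenin branch in many stem and tumor cells. Fzd7 was 65.8, 67.8, 68.4, 66.7 and 65.1 CPM in WT31 and 99.3, 113, 104, 91.8 and 105 CPM in WT31_P5IV (log2 fold change 0.62, SE 0.05, adjusted p = 3.65e-08, edgeR's quasi-likelihood test). Fzd8 was low, at 4.15, 4.09, 4.39, 4.28 and 4.71 CPM in WT31 and 6.81, 6.69, 6.35, 5.73 and 5.91 CPM in WT31_P5IV (log2 fold change 0.54, SE 0.08, adjusted p = 2.49e-05, edgeR's quasi-likelihood test). None of these 4 Frizzled genes had overlapping groups.

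Smaller differences were found for the other Frizzled genes. Fzd2 and Fzd1 were higher by log2 fold changes of 0.46 and 0.22 without overlap, and Fzd5 by 0.45 with overlapping groups, since its first WT31_P5IV library (4.46 CPM) lay within the WT31 range. On the TPM scale the call of Fzd1 was lost with either pseudocount (adjusted p = 0.432 and 0.444, limma), and that of Fzd5 with log2(TPM + 1) (adjusted p = 0.0515, limma). These values are not corrected for the shift of all genes by −0.167 and −0.159. Fzd3 (log2 fold change 0.09, SE 0.06, adjusted p = 0.205, edgeR's quasi-likelihood test) and Fzd4 (0.03, SE 0.09, adjusted p = 0.737) did not pass the test. Without WT31 replicates 2 and 3, Fzd3 was called, at 0.16 (adjusted p = 0.0283, edgeR's quasi-likelihood test). In the TPM, the 9 Frizzled genes summed to 74.7 ± 1.36 in WT31 and 104 ± 5.65 in WT31_P5IV (SD, n = 5). The order of the 3 highest means, Fzd7, Fzd9 and Fzd6, was the same in both groups, but in WT31 the libraries of Fzd6 and Fzd1 overlapped. Fzd6 went from 15.1% of the Frizzled sum (13.7 to 16.5%) to 19.8% (18.9 to 20.5%), while Fzd1 went from 13.9% to 10.4%. Across the 21 alternative settings 5 to 8 Frizzled genes were called higher, and none was called lower in any of these.

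The Fzd7 window is shown because Fzd7 had the highest level of the family and held 1 match to CTTTGTT, read on the other strand and in capitals (chr1:59481897-59482146, plus strand, 5′ to 3′).
Fzd7: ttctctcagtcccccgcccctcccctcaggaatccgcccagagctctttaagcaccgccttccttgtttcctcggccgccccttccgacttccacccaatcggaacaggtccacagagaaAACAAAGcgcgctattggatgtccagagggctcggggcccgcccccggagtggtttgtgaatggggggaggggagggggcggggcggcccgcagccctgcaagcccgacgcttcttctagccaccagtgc

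Ror2, a receptor tyrosine kinase-like protein that binds Wnt5 ligands, had the highest TPM of the 13 receptors in both groups, 38.8 ± 0.888 in WT31 and 62.3 ± 2.57 in WT31_P5IV (SD, n = 5). In CPM it was 97.9, 92.0, 95.4, 101 and 97.8 in WT31 and 171, 184, 182, 166 and 169 in WT31_P5IV. No libraries overlapped, and the log2 fold change was 0.85 (SE 0.04, adjusted p = 1.81e-10, edgeR's quasi-likelihood test). Its relative Ror1 differed less, by 0.28 (SE 0.07, adjusted p = 1.64e-03, edgeR's quasi-likelihood test), and its groups only just failed to overlap, at 19.0 to 23.77 CPM in WT31 and 23.84 to 28.2 CPM in WT31_P5IV. The call of Ror1 was lost on the TPM scale, at 0.11 and 0.10 (adjusted p = 0.284 and 0.275, limma), where the median of all genes moved by −0.167 and −0.159. Summed over the 13 receptors, the libraries held 147.1 to 156.4 TPM in WT31 and 211.7 to 240.1 TPM in WT31_P5IV, 1.5 times as much.

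**Figure D2:**
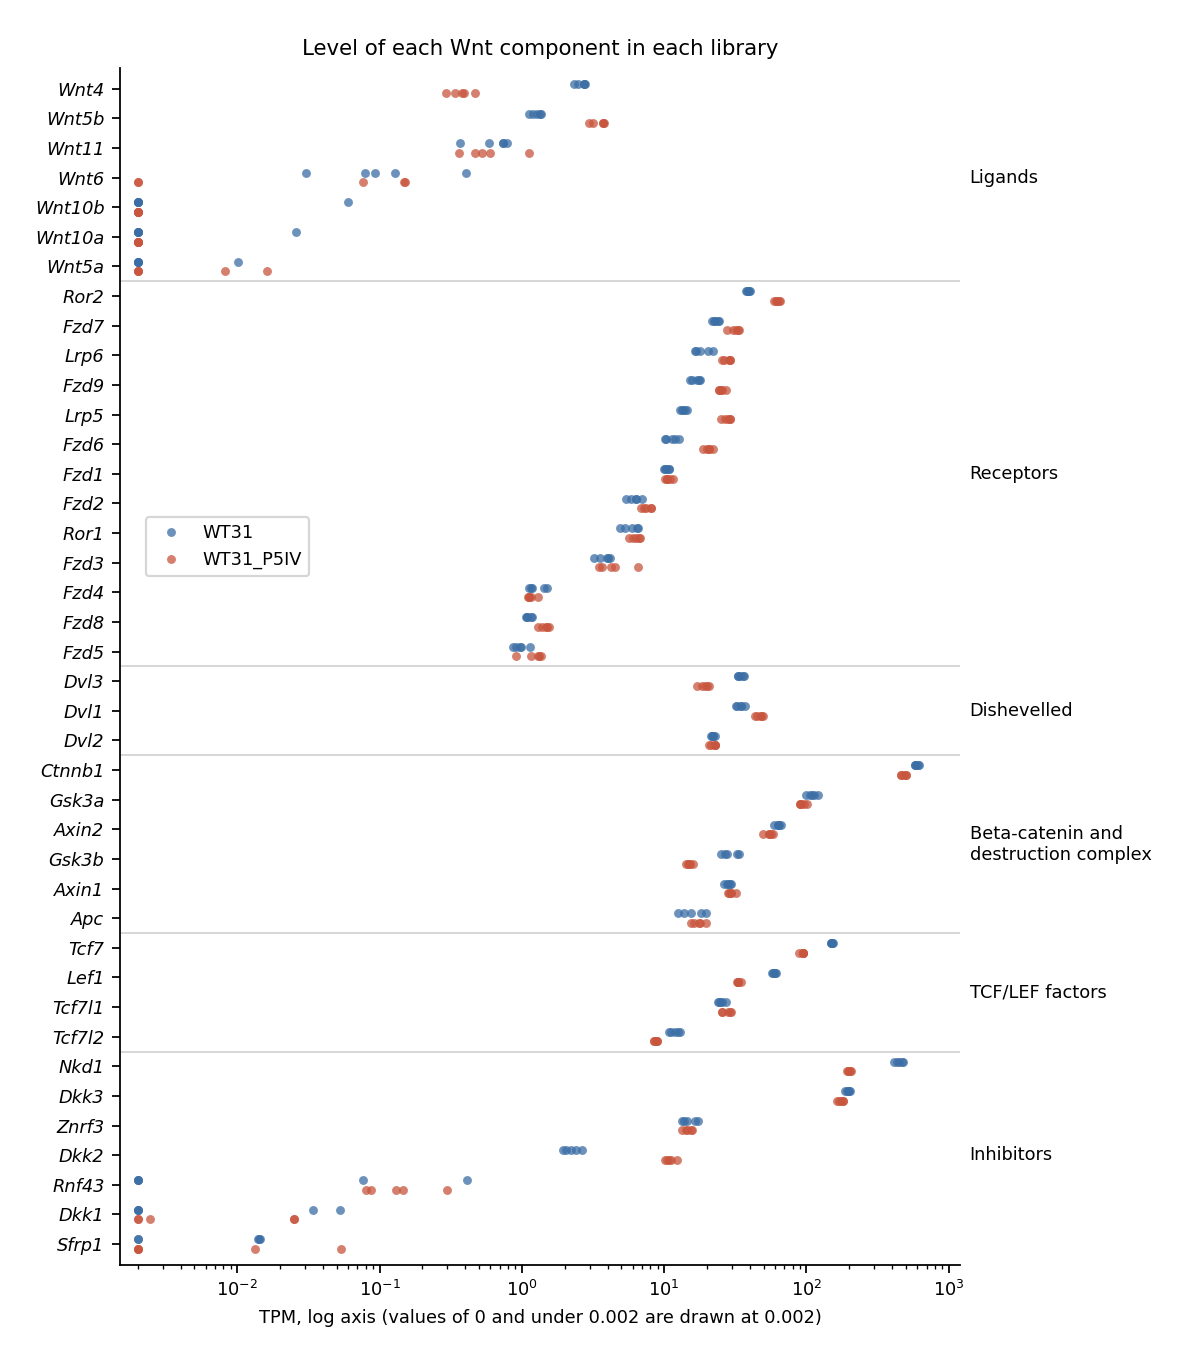
TPM of each of the 40 components (horizontal log axis) in each of the 5 WT31 (blue) and 5 WT31_P5IV (red) libraries, ordered by role and by mean level in WT31. Ctnnb1 (596 TPM in WT31) and Nkd1 (448 TPM) are the most abundant, and several ligands and secreted inhibitors lie at or near 0.

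Dishevelled genes moved in opposite directions. These genes encode 3 related cytoplasmic proteins that link Frizzleds to the destruction complex. Dvl1 was 63.2, 59.3, 59.3, 65.2 and 69.5 CPM in WT31 and 100.5, 90.6, 96.8, 95.9 and 94.3 CPM in WT31_P5IV, a log2 fold change of 0.60 (SE 0.05, adjusted p = 4.64e-08, edgeR's quasi-likelihood test). Dvl3 was 75.2, 77.5, 78.3, 79.0 and 78.5 CPM in WT31 and 47.3, 49.8, 43.1, 52.9 and 49.0 CPM in WT31_P5IV, a log2 fold change of −0.68 (SE 0.05, adjusted p = 1.03e-08, edgeR's quasi-likelihood test). Both had groups that did not overlap. Dvl2 was called higher by 0.11 (SE 0.04, adjusted p = 0.0344, edgeR's quasi-likelihood test), but its libraries overlapped and the call was lost when any of WT31 replicates 1, 2, 3 and 5 or WT31_P5IV replicates 1, 3 and 5 was left out, with adjusted p of 0.0686 to 0.126. It was also lost without WT31 replicates 2 and 3 together (0.05, adjusted p = 0.282), with no filter on low counts (0.05, adjusted p = 0.451), in DESeq2 (0.10, adjusted p = 0.0592) and on the TPM scale, where the value was 0.0048 and 0.0047 (adjusted p = 0.928 and 0.929, limma). Its exons overlap those of Acadvl on the other strand, which had a mean of 1074 counts in WT31 and 769 in WT31_P5IV, and whether the counting used strand is not given in the sources used here. The sum of the 3 genes was 90.5 ± 0.918 TPM in WT31 and 87.9 ± 3.20 TPM in WT31_P5IV (SD, n = 5), with overlapping libraries. Within it, Dvl1 went from 37.6% (35.6 to 40.4%) to 53.1% (51.7 to 54.6%) and Dvl3 from 38.1% (36.4 to 40%) to 21.8% (19.4 to 24.1%). Dvl3 and Dvl1 overlapped in WT31 and both lay above Dvl2, whereas in WT31_P5IV Dvl1 lay above Dvl2 and Dvl3, which overlapped.

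Beta-catenin and its destruction complex showed mostly small differences. Ctnnb1, which encodes beta-catenin, was the most abundant of all 40 components, at 1127, 1142, 1122, 1091 and 1082 CPM in WT31 and 983, 972, 966, 982 and 980 CPM in WT31_P5IV. The groups did not overlap, but the log2 fold change was only −0.19 (SE 0.03, adjusted p = 8.31e-05, edgeR's quasi-likelihood test). RNA levels of this gene do not measure the beta-catenin protein, which is set by its degradation. Gsk3b, 1 of the 2 glycogen synthase kinase 3 genes, whose products phosphorylate beta-catenin, was 132, 158, 154, 133 and 126 CPM in WT31 and 80.03, 77.25, 82.04, 81.41 and 80.6 CPM in WT31_P5IV. Its log2 fold change was −0.81 (SE 0.06, adjusted p = 2.18e-08, edgeR's quasi-likelihood test), and WT31 replicates 2 and 3 were again the highest. The other of these, Gsk3a, was not called (log2 fold change −0.06, SE 0.06, adjusted p = 0.413, edgeR's quasi-likelihood test). It was called at −0.16 without WT31 replicates 2 and 3 (adjusted p = 0.0107, edgeR's quasi-likelihood test), and on the TPM scale at −0.23 and −0.22 (adjusted p = 0.00703 and 0.0052, limma). The median of all genes moved by −0.167 and −0.159 on the TPM scale. Of the sequence words of the Gsk3a transcripts, 30.35% also occur in other genes, more of them in 9130221H12Rik on the other strand than in any other. Gsk3b made up 21.1% (17.3 to 25.3%) of the TPM of both kinases in WT31 and 13.9% (12.9 to 15.1%) in WT31_P5IV.

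The scaffold genes differed little. Axin1 was higher by 0.22 (SE 0.03, adjusted p = 2.03e-05, edgeR's quasi-likelihood test), with 56.5 to 60.0 CPM in WT31 and 67.2 to 69.0 CPM in WT31_P5IV. Its call was lost on the TPM scale, at 0.07 with either pseudocount (adjusted p = 0.252 and 0.25, limma). On that scale the median of all genes moved by −0.167 and −0.159. Axin2, a scaffold that is itself a common target of beta-catenin, was lower by a small margin (log2 fold change −0.10, SE 0.04, adjusted p = 0.0206, edgeR's quasi-likelihood test). Its groups overlapped, at 132 to 146 CPM in WT31 and 125 to 132 CPM in WT31_P5IV, and the call was lost with upper-quartile scaling (adjusted p = 0.0928), without WT31 replicates 4 and 5 (adjusted p = 0.0573), and on the centred TPM scale (adjusted p = 0.234, limma). Apc, the large scaffold lost in many intestinal tumors, was higher by 0.26 (SE 0.09, adjusted p = 0.0183, edgeR's quasi-likelihood test) with overlapping groups. Its call was lost without WT31 replicate 1, 4 or 5 or WT31_P5IV replicate 2, at adjusted p of 0.0548 to 0.0635, and without WT31 replicates 4 and 5 together it was at 0.11 (adjusted p = 0.19). On the TPM scale it was at 0.13 with either pseudocount (adjusted p = 0.354 and 0.334, limma), and after centring at 0.27 (adjusted p = 0.0758). The Axin2 window before its start is shown because Axin2 is a widely used readout of the pathway, and it held none of the 4 motifs (chr11:108920099-108920348, plus strand, 5′ to 3′).
Axin2: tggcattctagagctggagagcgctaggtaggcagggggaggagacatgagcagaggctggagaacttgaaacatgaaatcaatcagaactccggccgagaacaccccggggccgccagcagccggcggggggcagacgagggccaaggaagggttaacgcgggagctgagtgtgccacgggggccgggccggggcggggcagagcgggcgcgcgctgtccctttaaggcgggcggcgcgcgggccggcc

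TCF/LEF factors bind DNA and recruit beta-catenin to its target genes. Tcf7, the most abundant of the 4 in both groups, was 221, 208, 209, 227 and 225 CPM in WT31 and 155, 147, 153, 157 and 150.0 CPM in WT31_P5IV. Lef1 was 114, 111, 118, 119 and 114 CPM in WT31 and 69.9, 73.9, 71.8, 77.3 and 70.1 CPM in WT31_P5IV. Neither gene had overlapping groups. Their log2 fold changes were −0.52 for Tcf7 (SE 0.04, adjusted p = 1.38e-08, edgeR's quasi-likelihood test) and −0.67 for Lef1 (SE 0.04, adjusted p = 1.49e-09, edgeR's quasi-likelihood test). Lef1 has an antisense neighbour, Gm43352, with a mean of 105 counts in WT31 and 62 in WT31_P5IV, against 1662 or more for Lef1 in any library. Tcf7l2 was lower by 0.33 on the log2 scale (SE 0.04, adjusted p = 1.08e-05, edgeR's quasi-likelihood test), at 20.2 to 21.5 CPM in WT31 and 15.6 to 17.0 CPM in WT31_P5IV. Tcf7l1, the member best known as a repressor, went the other way, by 0.29 (SE 0.06, adjusted p = 7.03e-04, edgeR's quasi-likelihood test), with overlapping groups of 40.7 to 49.3 and 48.9 to 58.5 CPM. Its call was lost on the TPM scale, at adjusted p of 0.0866 to 0.0924 (limma). The shift of all genes on that scale is given above. In TPM the 4 factors summed to 247 ± 3.24 in WT31 and 163 ± 4.50 in WT31_P5IV (SD, n = 5), and Tcf7l1 went from 10.3% (9.89 to 11.1%) to 16.9% (15.9 to 17.7%) of the sum. Summed CPM differed less between the groups, as given with the alternative settings. The order Tcf7, Lef1, Tcf7l1, Tcf7l2 was the same in both groups, with no overlap between neighbours. The Lef1 window with 2 matches to CTTTGA, both read on the other strand, is shown because Lef1 is a factor as well as a common target of the pathway. It precedes an internal RefSeq start within the gene (chr3:131156044-131156293, plus strand, the cores in capitals, 5′ to 3′).
Lef1: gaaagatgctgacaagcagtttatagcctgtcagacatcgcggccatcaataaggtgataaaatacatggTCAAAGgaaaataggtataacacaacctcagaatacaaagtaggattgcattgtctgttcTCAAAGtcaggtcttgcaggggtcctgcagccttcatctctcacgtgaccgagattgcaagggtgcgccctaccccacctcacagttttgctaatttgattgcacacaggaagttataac

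**Figure D3:**
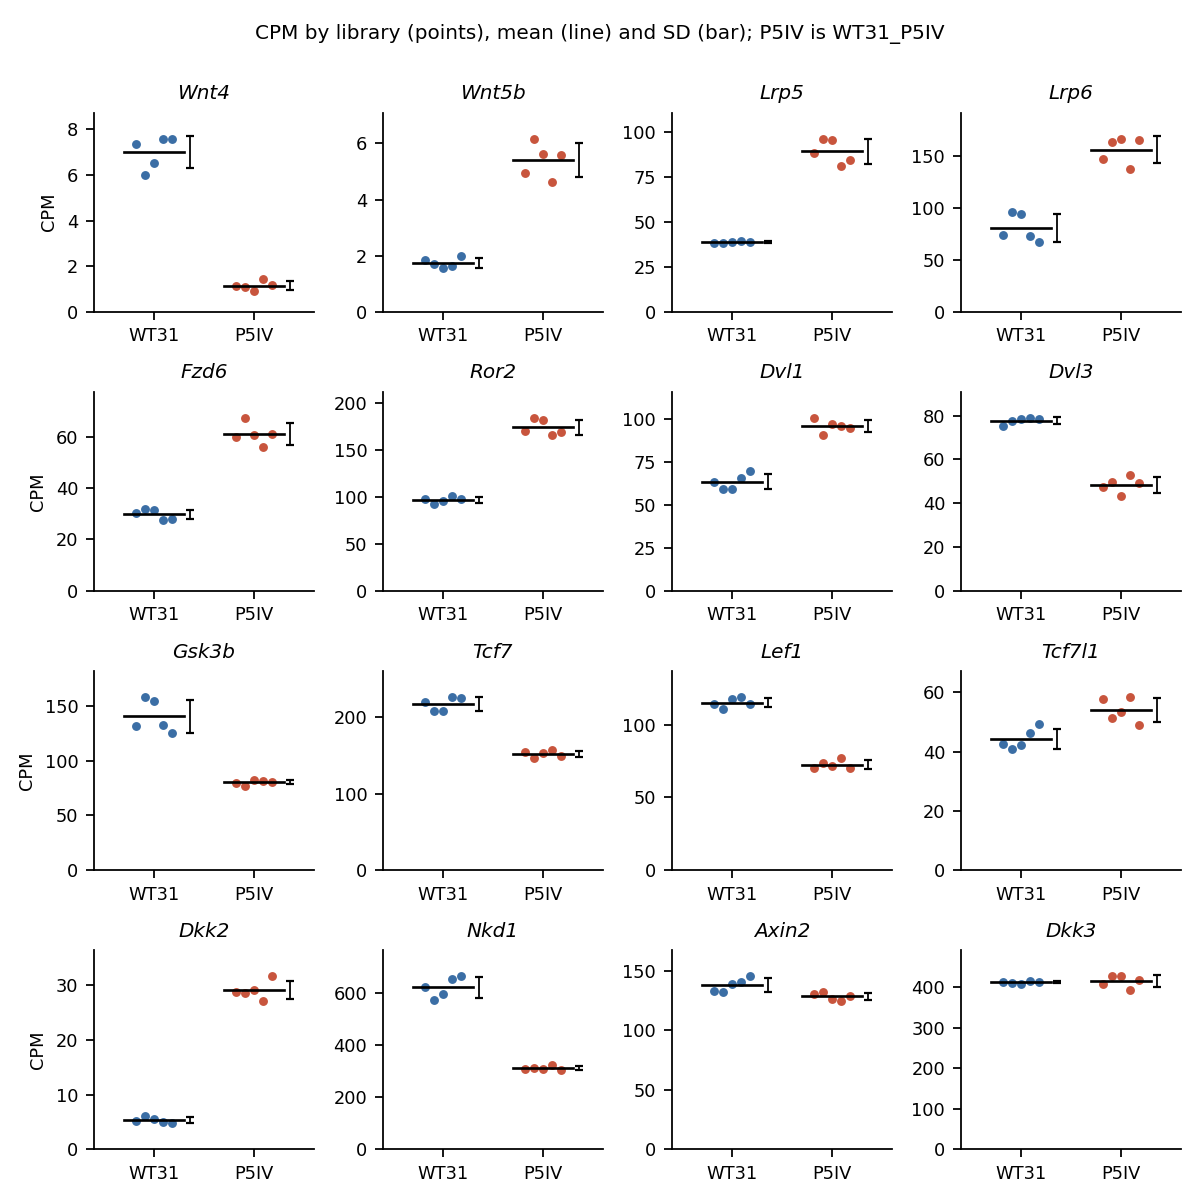
CPM of 16 components in each library (points, vertical axes from 0), with the group mean (line) and SD (bar) for 5 WT31 and 5 WT31_P5IV libraries. Dvl1 and Dvl3 differ in opposite directions, Lrp6 and Gsk3b show the spread of the WT31 libraries, and Dkk3 is at 413 and 415 CPM.

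The inhibitors held the component with the largest increase. Dkk2, a secreted Dickkopf protein that binds Lrp5 and Lrp6, was 5.21, 6.06, 5.53, 4.91 and 4.71 CPM in WT31 and 28.8, 28.6, 29.2, 27.2 and 31.7 CPM in WT31_P5IV. The lowest WT31_P5IV library was several times above the highest WT31 library. Its means of 5.29 ± 0.530 and 29.1 ± 1.62 CPM (SD, n = 5) were 5.50-fold apart, a log2 fold change of 2.46 (SE 0.07, adjusted p = 6.84e-13, edgeR's quasi-likelihood test), on 119 to 160 and 646 to 767 counts. Dkk2 (ENSMUSG00000028031.6) lies at chr3:132085292-132180304. Its promoter window is shown because of this difference. It held none of the 4 motifs and a GC content of 55.6% (chr3:132085042-132085291, plus strand, 5′ to 3′).
Dkk2: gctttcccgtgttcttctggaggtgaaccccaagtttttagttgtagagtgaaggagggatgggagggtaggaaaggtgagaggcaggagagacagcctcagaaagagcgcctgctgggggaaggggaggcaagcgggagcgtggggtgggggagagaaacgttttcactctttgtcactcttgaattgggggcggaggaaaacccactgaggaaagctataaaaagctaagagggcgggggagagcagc

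Nkd1, a Dishevelled-binding feedback inhibitor, was by contrast the most abundant inhibitor and lower in WT31_P5IV. It was 621, 570.5, 594, 651 and 664 CPM in WT31 and 309, 311, 307, 322 and 304 CPM in WT31_P5IV. Within WT31_P5IV the libraries lay close together, at 310.5 ± 7.04 CPM, against 620 ± 38.6 CPM in WT31 (SD, n = 5). The log2 fold change was −0.997 (SE 0.04, adjusted p = 7.68e-11, edgeR's quasi-likelihood test), just short of the filter, and was between −0.96 and −1.17 in the 21 alternative settings. Nkd1 (ENSMUSG00000031661.12) lies at chr8:88521354-88594884. Dkk3, a divergent Dickkopf relative, was abundant but not called, at 409.6 to 415.6 CPM in WT31 and 394 to 428 CPM in WT31_P5IV (log2 fold change 0.01, SE 0.03, adjusted p = 0.84, edgeR's quasi-likelihood test). It was called lower on the TPM scale, as given with the alternative settings.

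The 2 ubiquitin ligases that remove Frizzleds from the cell surface are Znrf3 and Rnf43. Znrf3 was called higher by 0.14 (SE 0.06, adjusted p = 0.0425, edgeR's quasi-likelihood test), but its groups overlapped at 51.4 to 60.0 and 55.8 to 66.8 CPM. This call was lost without WT31 replicate 1, 4 or 5 or WT31_P5IV replicate 1, 2, 3 or 5, at adjusted p of 0.0607 to 0.147, and without WT31 replicates 4 and 5 together it was at 0.06 (adjusted p = 0.385). It was lost too with no filter on low counts (0.08, adjusted p = 0.251), in DESeq2 (0.13, adjusted p = 0.0527) and on the TPM scale, where its sign reversed, while the centred value was 0.10 (adjusted p = 0.309, limma). Rnf43 was too low for the test, with 0 to 2 counts in WT31 and 5 to 8 in WT31_P5IV. The counts did not overlap, whereas the TPM did overlap. The two-sided exact permutation p of the CPM was 0.00794 with n = 5 each, unadjusted, the smallest p this design can give. Adjusted over the 7 such tests of the scarce components, this permutation p was 0.0556, above the limit of 0.05. With no filter on low counts Rnf43 was the only one of these 7 that was called, at 2.81 (SE 0.67, adjusted p = 4.57e-04, edgeR's quasi-likelihood test), a fitted value that rests on few counts. Dkk1 had at most 2 counts and Sfrp1 at most 4 in any library. As a whole the 7 inhibitors summed to 661 ± 18.2 TPM in WT31 and 399 ± 5.76 TPM in WT31_P5IV (SD, n = 5), most of it Nkd1 and Dkk3. In summed CPM the groups differed less, as given with the alternative settings.

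**Figure D4:**
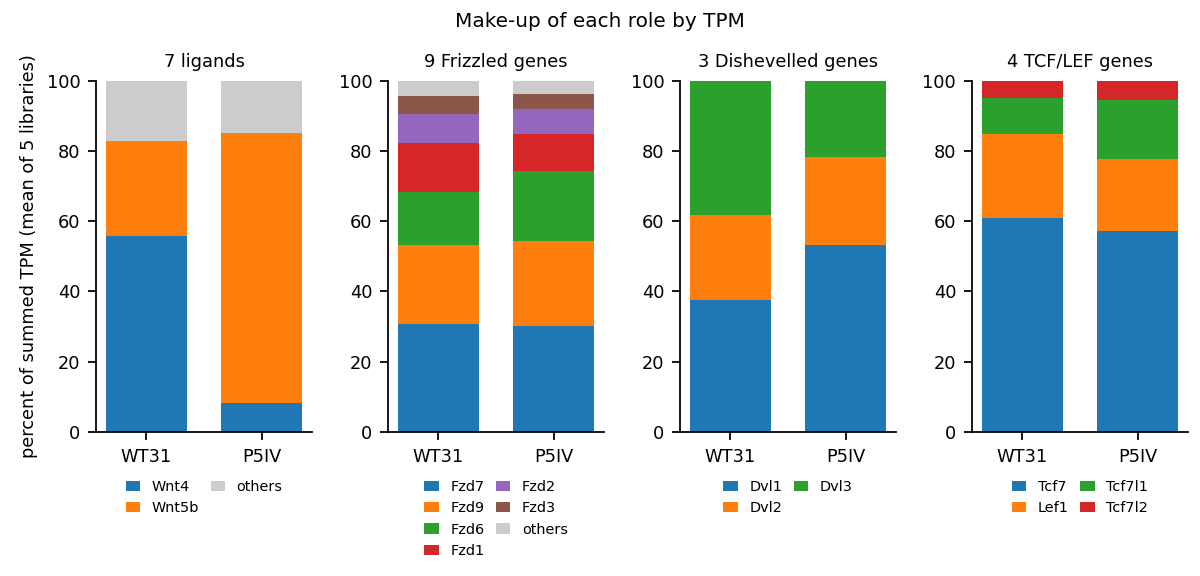
Share of the summed TPM (vertical axis, percent, mean of 5 libraries per group) held by each gene among the ligands, Frizzled, Dishevelled and TCF/LEF genes in WT31 and WT31_P5IV. Wnt4 falls from 55.8% to 8.36% of the ligands and Dvl3 from 38.1% to 21.8% of the Dishevelled genes, while the shares of Fzd7 are 30.8% and 30.2%.

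Position in the genome was compared with the fold changes because chromosomes 16 and 6 differed as a whole between the groups. On chromosome 16 the median of 415 tested genes was −0.42 and 68.2% were called lower. Dvl3 (−0.68) and Gsk3b (−0.81) lie there. The median of 677 tested genes was 0.28 on chromosome 6, and 59.2% were called higher. Wnt5b (1.63), Lrp6 (0.95) and Tcf7l1 (0.29) lie on this chromosome, and the value of Tcf7l1 was about that of the median gene. The part of the chromosome-wide differences in these 5 genes was not tested. Every other chromosome that carries a component had a median within 0.1 of 0, among them those of Wnt4, Dkk2, Lrp5, Fzd6, Nkd1, Dvl1, Lef1 and Tcf7.

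The rest of the pathway was read from 7 further lists with 88 genes that are no component above, of which 61 were tested and 46 called, 23 in each direction. That was 75.4% of the 61, beside 68.5% of all tested genes (34.6% higher and 33.9% lower). Steps of ligand production were higher in WT31_P5IV. Wls, the carrier that brings Wnt proteins to the cell surface, was 196.7, 207.9, 193.1, 185.9 and 180.3 CPM in WT31 and 333.7, 371.2, 371.5, 326.3 and 351.1 CPM in WT31_P5IV (log2 fold change 0.86, SE 0.05, adjusted p = 1.1e-09, edgeR's quasi-likelihood test). Porcn, the acyltransferase that attaches their lipid, was higher by 0.75 (SE 0.08, adjusted p = 1.91e-06, edgeR's quasi-likelihood test) at 3.37 to 4.17 and 5.72 to 6.99 CPM. Of the 12 other ligand genes only Wnt2b was tested, at under 1 CPM on average.

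Ptk7, a receptor-like pseudokinase of planar cell polarity, had the largest difference among all pathway genes examined. It was 3.72, 3.94, 4.12, 4.68 and 4.99 CPM in WT31 and 45.0, 48.7, 45.8, 43.8 and 43.5 CPM in WT31_P5IV. The groups lay far apart, with a log2 fold change of 3.40 (SE 0.07, adjusted p = 3.54e-14, edgeR's quasi-likelihood test). Planar polarity genes, which act with Ror2, Fzd6 and Dishevelled and without beta-catenin, were tested for 9 of 11. Of these 8 were higher and 1 was lower (34.6% and 33.9% of all tested genes), with a median log2 fold change of 0.44, beside 0.01 for all tested genes. Scrib (0.88), Celsr2 (0.59) and Vangl1 (0.53) were at the upper end, and Prickle2 (−0.69) was the lower one. Among the other receptors, Lgr4, which binds R-spondins, was called at 0.21 (SE 0.07, adjusted p = 0.0152, edgeR's quasi-likelihood test), and Ryk, a further Wnt receptor, at −0.23 (SE 0.03, adjusted p = 1.21e-05, edgeR's quasi-likelihood test). The call of Lgr4 was lost without WT31_P5IV replicate 2 (adjusted p = 0.0538) and without WT31 replicates 4 and 5 (0.11, adjusted p = 0.149).

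The inhibitors outside the 40 components were lower for 6 and higher for 3 of the 9 tested, beside 33.9% lower and 34.6% higher over all tested genes. Notum, an enzyme that inactivates Wnt proteins by removing their lipid, was 22.5, 18.6, 18.1, 20.0 and 21.9 CPM in WT31 and 5.72, 6.82, 6.76, 6.36 and 8.59 CPM in WT31_P5IV (log2 fold change −1.56, SE 0.10, adjusted p = 2.93e-09, edgeR's quasi-likelihood test). Apcdd1 (−0.85), Wif1 (−0.65), Nkd2 (−0.49), Kremen1 (−0.26) and the scarce Sfrp4 (−2.38, at most 1.14 CPM) were lower as well. Sfrp4 had 17 to 29 counts in WT31 and 3 to 5 in WT31_P5IV, so its fold change rests on few counts. Higher were Frzb (0.92), Ctnnbip1 (0.36) and Cby1 (0.19). Of 15 cytoplasmic genes, 9 were lower and 4 higher, among them Ccdc88c (1.06), which binds Dishevelled, and the casein kinase genes Csnk1a1 (−0.41), Csnk1e (−0.33) and Csnk1d (−0.20). Of 13 nuclear cofactors, 3 were called, beside 68.5% of all tested genes: Tle4 (−0.76), Crebbp (−0.29) and Tle2 (0.34).

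Of 18 common targets of beta-catenin, which include 7 of the components, 15 were tested, 9 were lower, 3 higher and 3 not called, beside 33.9% lower and 34.6% higher over all tested genes. The median was −0.30, beside 0.01 for all tested genes. Of the 11 targets that are no component, 10 were tested, 5 were lower and 2 higher, and their median was −0.155. Lower were Notum, Nkd1, Apcdd1, Lef1, Tcf7, Ccnd1, Myc, Sp5 and Axin2, and higher were Cd44 (0.56), Tnfrsf19 (0.42) and Znrf3. Ccnd1, which encodes cyclin D1, was 1963, 1999, 1935, 1939 and 1958 CPM in WT31 and 1458, 1372, 1446, 1494 and 1344 CPM in WT31_P5IV (log2 fold change −0.46, SE 0.04, adjusted p = 4.84e-08, edgeR's quasi-likelihood test). Myc differed by −0.38 (SE 0.05, adjusted p = 8.7e-06, edgeR's quasi-likelihood test), at 110.4 to 124.4 and 82.0 to 96.2 CPM. Mitf was not called, at 313.4 to 390.1 and 333.9 to 360.3 CPM (log2 fold change −0.01, SE 0.06, adjusted p = 0.84, edgeR's quasi-likelihood test). Other pathways also control most of these targets, so the counts describe the list and do not measure beta-catenin activity.

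**Figure D5:**
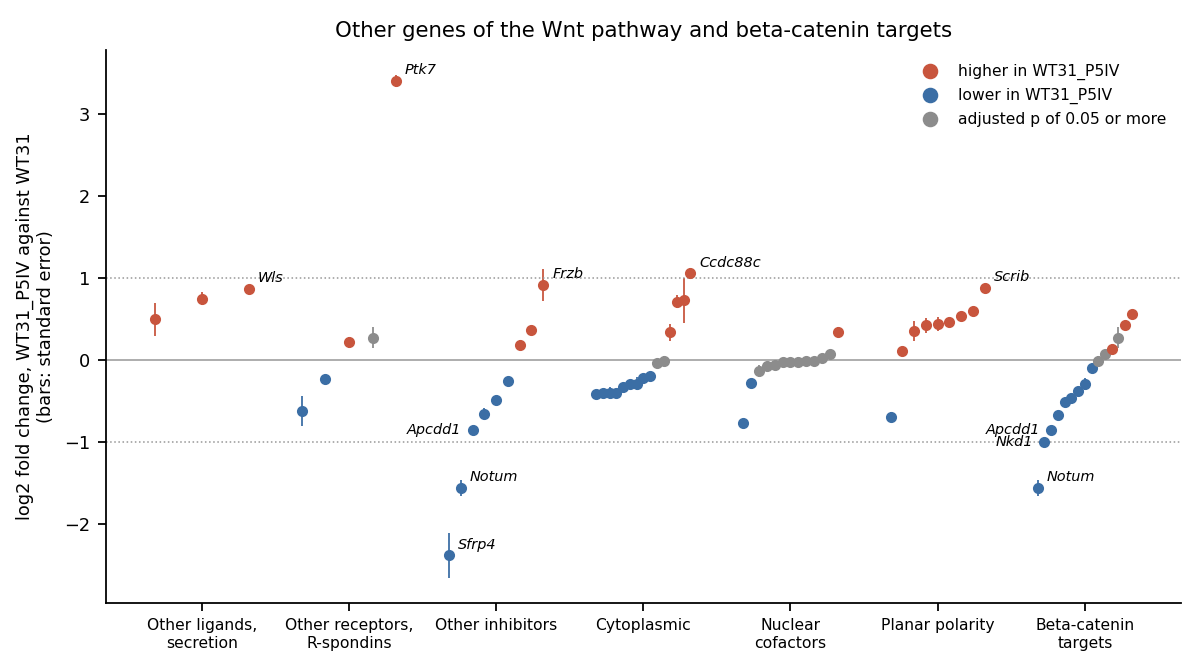
Log2 fold change of WT31_P5IV against WT31 (vertical axis, bars are standard errors from 5 libraries per group) for the tested genes of 7 further lists, each gene a point coloured by its call. Ptk7 is at 3.40, 8 of 9 planar polarity genes lie above 0, and 9 of 15 beta-catenin targets are lower.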

How the data were processed

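RNA-seq of 5 WT31 and 5 WT31_P5IV libraries was analysed. The authors trimmed reads with Trim Galore 0.6.4 and quantified them with kallisto against GRCm38.p6 (version 0.4.6 per the labels, whereas the study's methods name another version). The deposited estimated counts and the deposited TPM values, both by the authors, were summed per gene. The labels name instruments of 2 makers, and the annotation release is not given in the sources used here. Of the 55385 identifiers, 55144 were given a symbol and position from GENCODE M21.

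Estimated counts were rounded, filtered with filterByExpr, scaled by TMM and tested with glmQLFit and glmQLFTest (edgeR 4.0.16, R 4.3.3). The study used limma voom, which was an alternative here (limma 3.58.1), as was DESeq2 1.42.0. Standard errors are the log2 fold change over the square root of F. The edgeR script was tested on simulated data. Totals of 24255389 to 25750639 counts per library set the precision, and a limit of 3 counts stands for non-detection. Alternatives changed scaling, filter, tool, the TPM pseudocount (0.1 or 1), the replicate block, and left out libraries. Tables were handled with Python 3.11.15, pandas 2.3.3 and numpy 2.4.6. Sequences are from RefSeq.

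The members and lists were chosen with earlier results of these data known. Library values are given for components called with an absolute log2 fold change of at least 0.5 and for the highest TPM of each role. Other components are given by range, by fold change or by both. From the other lists the rule names genes called with an absolute log2 fold change of at least 1, and Porcn, Wls, Lgr4, Ryk, Myc, Ccnd1 and Mitf. Other named genes were chosen after their values were seen.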

Additional observations from a re-analysis of the deposited data

Results flagged for a closer look

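In 66 groups of 5 libraries (33 tested components in each line), 3 had a highest or lowest library that stood apart from the rest by more than Dixon's criterion allows, and chance alone sets apart about 1 in 20 such groups. The Wnt11 level of WT31 replicate 1 was 0.392 CPM, below 0.706 to 0.786 CPM in the other WT31 libraries. For Fzd4, WT31_P5IV replicate 5 was at 6.24 CPM, above 5.51 to 5.63 CPM in the rest of its group. Axin1 in the same library was at 67.2 CPM, below 68.6 to 69.0 CPM in the others. Neither Wnt11 nor Fzd4 was called, and Axin1 was called with and without that library.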

How the results depend on the processing

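Across 21 alternative settings, 22 to 29 components were called and 3 to 7 were past the fold filter. Of 692 values of single components, 641 kept direction and call, 43 lost the call, 4 gained it and 4 reversed, and 21 of 33 components changed in no setting. Leaving out 1 library gave 25 to 28 calls and 4 to 7 past the filter. On the TPM scale the median of all genes moved by −0.167 (+ 0.1) and −0.159 (+ 1), the share of all calls that were higher fell from 50.5% to 32.9% and 32.8%, and 12 and 11 components were called higher instead of 19. With log2(TPM + 1), 3 were past the filter, and Wnt5b (0.98), Lrp5 (0.96) and Fzd6 (0.81) were not. Reversed were Dkk3 (−0.17 with either pseudocount, adjusted p 0.00521 and 0.00456, limma) and Znrf3 (−0.0399 and −0.0379, adjusted p 0.678 and 0.668, limma). After centring log2(TPM + 0.1), an alternative added after seeing the data, 17 were higher and 8 lower. Summing CPM in place of TPM moved the ratio of WT31_P5IV to WT31 from 0.97 to 0.762 for ligands, 1.5 to 1.69 for receptors, 0.971 to 1.03 for Dishevelled, 0.822 to 0.896 for the beta-catenin genes, 0.659 to 0.742 for TCF/LEF factors and 0.604 to 0.746 for inhibitors. The cause was not tested.

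In settings chosen after seeing the data, 29 were called and 7 past the filter without WT31 replicates 2 and 3, and 25 and 4 without replicates 4 and 5. DESeq2 called 26, not Dvl2 and Znrf3. Libraries of the same number in the sample titles did not clearly deviate together (correlations −0.10 to 0.18, and libraries 3 and 4 alone matched their own number best). Nor did those of the same number in the descriptions, which number WT31 differently (−0.16 to 0.07). The numbers thus gave no sign of a pairing, but weak correlations cannot exclude that same-numbered libraries were handled together. With a replicate block by title, 28 were called, 19 higher and 9 lower, and 5 were past the filter. Wnt5a, Wnt10a, Wnt10b and Dkk1 stayed under 3 counts in every library, so their differences were not detectable.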
